A study of Mus musculus with 6 samples.

Results

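The genes described here are 8 genes of the growth hormone and prolactin axis: the hormone genes Gh and Prl, the receptors that carry signals to the cells making them (Ghrhr, Ghsr, Sstr2 and Drd2), and the receptors for the hormones themselves (Ghr and Prlr). They were taken by symbol from the gene table shared by the 6 libraries, and all 8 were found among its 27998 genes. The rule reads gene symbols only.

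Growth hormone is secreted by somatotropes of the anterior pituitary and prolactin by lactotropes. Growth hormone-releasing hormone and ghrelin act on somatotropes through the receptors encoded by Ghrhr and Ghsr, somatostatin restrains them through receptors that include the product of Sstr2, and dopamine restrains lactotropes through the receptor encoded by Drd2. The growth hormone and prolactin receptors signal through the kinase JAK2 and the STAT5 transcription factors.

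The libraries came from a single-cell RNA study of the 3 organs of the hypothalamic-pituitary-adrenal axis: the paraventricular nucleus (PVN) of the hypothalamus, the pituitary and the adrenal gland. C57BL/6 mice, 10 weeks old and with no transgene named in the labels, were either controls or had been exposed to chronic social defeat over 21 days. Each organ gave 1 control and 1 stress library, each made from cells of 5 pooled mice perfused with cold saline, and both suspensions of an organ were loaded on 1 chip of a droplet system that counts molecules by unique molecular identifiers (UMIs). The PVN was cut out by hand with surrounding tissue, PVN and pituitary were digested with papain, and adrenals with collagenase. With 1 library per group there was no replicate, so no p-value is given. Intervals cover 95% counting error of the UMIs or cells and say nothing of variation between mice.

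The libraries held 3653 and 3612 PVN barcodes (control and stress, the order used throughout), 5202 and 5103 from the pituitary, and 2330 and 3183 from the adrenal, with library totals between 29059956 and 53244403 UMIs. Median UMIs per barcode lay between 5593.5 and 10288. Library pairs shared between 10 and 39 barcode sequences. Clusters were formed without the 8 genes and named only from other marker genes, so levels of the 8 genes in a class are not built into the class. Levels and ratios are compared over the 26 named classes with at least 20 cells in both libraries, and smaller or unnamed classes are named where they are used. The somatotrope-like cells had Rxrg at 64.1 CPM (UMIs of a gene per 1000000 UMIs of the class) against 13.6 in the other pituitary cells and Dlk1 at 2659 against 1402, although Pou1f1, a factor of several hormone lineages, was at 191 against 231. The lactotrope-like cells had Agtr1a at 68.7 CPM against 2.55 and Edil3 at 139 against 3.05, while Agtr1b, another listed marker, was at 0. The adrenal cortex-like cells had the steroid enzyme gene Cyp11a1 at 4742 CPM against 1260 in the other adrenal cells.

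In GRCm38 coordinates of GENCODE vM21, Gh (ENSMUSG00000020713) lies at chr11:106300271-106301865 on the minus strand and Prl (ENSMUSG00000021342) at chr13:27057570-27065205 on the plus strand. Ghrhr (ENSMUSG00000004654) lies at chr6:55376295-55388530, Ghsr (ENSMUSG00000051136) at chr3:27371351-27378010, Sstr2 (ENSMUSG00000047904) at chr11:113619342-113626028 and Drd2 (ENSMUSG00000032259) at chr9:49340627-49408177, all on the plus strand. Ghr (ENSMUSG00000055737) lies at chr15:3317760-3583492 on the minus strand and Prlr (ENSMUSG00000005268) at chr15:10177238-10349180 on the plus strand. The pituitary factor POU1F1 (Pit-1) is known to bind the promoters of Gh and Prl. Its transcript is among those that follow Gh most closely across clusters of all 3 organs, where Gh was found in the pituitary only. Within the pituitary Pou1f1 was lower in somatotrope-like cells than in the other cells (191 against 231 CPM). The 250 bases before the Prl start in RefSeq (GRCm38.p6, chr13:27057320-27057569, plus strand) are shown with matches to TATNCAT, a form of the POU1F1 motif, on either strand in capitals.
Prl upstream: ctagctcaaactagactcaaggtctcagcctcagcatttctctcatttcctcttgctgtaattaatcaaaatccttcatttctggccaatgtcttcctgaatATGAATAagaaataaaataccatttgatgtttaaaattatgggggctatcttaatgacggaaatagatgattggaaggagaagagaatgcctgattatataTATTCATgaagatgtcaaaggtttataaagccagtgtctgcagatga
The matches begin at base -148 (minus strand) and base -47 (plus strand) relative to the start, and do not overlap. Of 32851 upstream windows of the same length in the table, 2603 (7.92%) held at least 1 match and 415 (1.26%) held 2 or more. The table holds 6 of the 8 genes, all but Gh and Ghrhr, and the windows of the other 5 held no match in these 250 bases. A match is a description of the letters, not a measured binding site.

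Gh made up 42.3% of all UMIs of the control pituitary library and 45.1% of the stress pituitary library (21139873 and 24037800 UMIs). Prl made up 2.50% and 2.45% (1249412 and 1306868 UMIs). Every one of the 5202 and 5103 pituitary barcodes held at least 1 UMI of Gh. Neither gene had a UMI in any PVN or adrenal library, where a count of 3 UMIs would correspond to 0.0887 to 0.103 CPM. UMIs count molecules near the 3' end and were not scaled to gene length, so no order of levels between genes is read as a result. UMI counts served only to choose which further axis genes are named.

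The somatotrope-like class held 3259 control and 3111 stress cells (65.9% and 63.8% of the pituitary cells kept). Gh took 56.0% of its UMIs in the control and 59.6% in the stress library. The middle 50% of single cells spanned 47.2% to 65.2% around a median of 54.6% in the control and 51.3% to 68.1% around a median of 60.3% under stress, so the cells of both libraries largely overlapped. The log2 ratio of stress over control was 0.09 (0.0900 to 0.0918). The class was made of 6 clusters, and Gh was higher in the stress library in 5 of them. In the exception, cluster 9, led by Pappa2 and Entpd3, Gh was at 72.4% and 71.7%. The lowest shares were in cluster 4, led by Nes, Rprm and Wfdc2, at 42.0% and 43.5%. The clusters were not equally filled: the largest in the control was cluster 13 (893 and 603 cells, Gh at 497819 and 530041 CPM) and the largest under stress was cluster 1 (628 and 1005 cells, Gh at 560260 and 601015 CPM).

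A gene that fills most of a cell's UMIs lowers the CPM of every other gene when its own share goes up. Over 12041 genes with at least 50 UMIs in somatotrope-like cells of both libraries together, the median log2 ratio was -0.18, and 82.5% of the genes were lower under stress. With Gh and Prl taken out of the total the median was -0.05 and 61.2% were lower. Genes past 1.5-fold split into 107 higher and 681 lower on all UMIs, and into 172 higher and 357 lower without the hormones. Against the rest of the transcriptome on that second scale Gh had a log2 ratio of 0.22. Set against the other pituitary cells, by subtracting their log2 ratio from that of the class, the value was -0.28: the ratio of Gh over all other cells was larger than that in somatotrope-like cells.

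**Figure D1:**
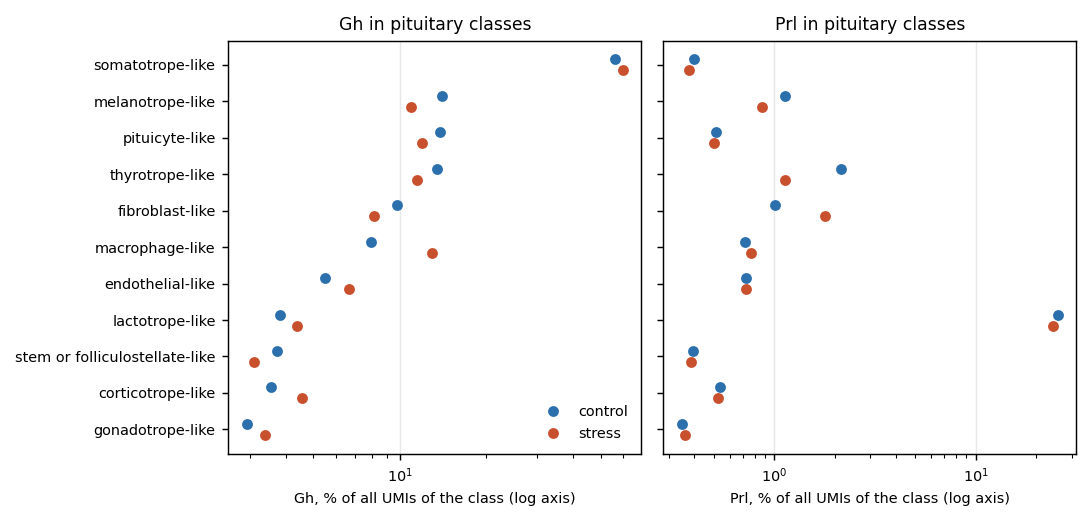
Gh and Prl as a percent of the UMIs of each pituitary cell class, control and stress (1 library each; logarithmic axis). Gh stands at 56.0% and 59.6% in somatotrope-like cells and Prl at 25.6% and 24.1% in lactotrope-like cells, with both genes present at lower levels in every other class.

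The lactotrope-like class held 481 control and 518 stress cells (9.73% and 10.6%). Prl took 25.6% of the class's UMIs in the control and 24.1% in the stress library, a log2 ratio of -0.08 (-0.09 to -0.08). Single cells spread widely. The median share was 22.4% and 20.01%, the middle 50% spanned 9.91% to 34.6% and 8.82% to 31.9%, and the highest cells reached 64.2% and 67.2%. At least 10% of UMIs were Prl in 360 and 375 of these cells, and both hormones were below 10% in 105 and 120. Cells with at least 10% of each hormone numbered 8 and 9. The difference between the libraries was small beside the spread of the cells, and with the log2 ratio of Prl in all other pituitary cells subtracted it was 0.0019.

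**Figure D2:**
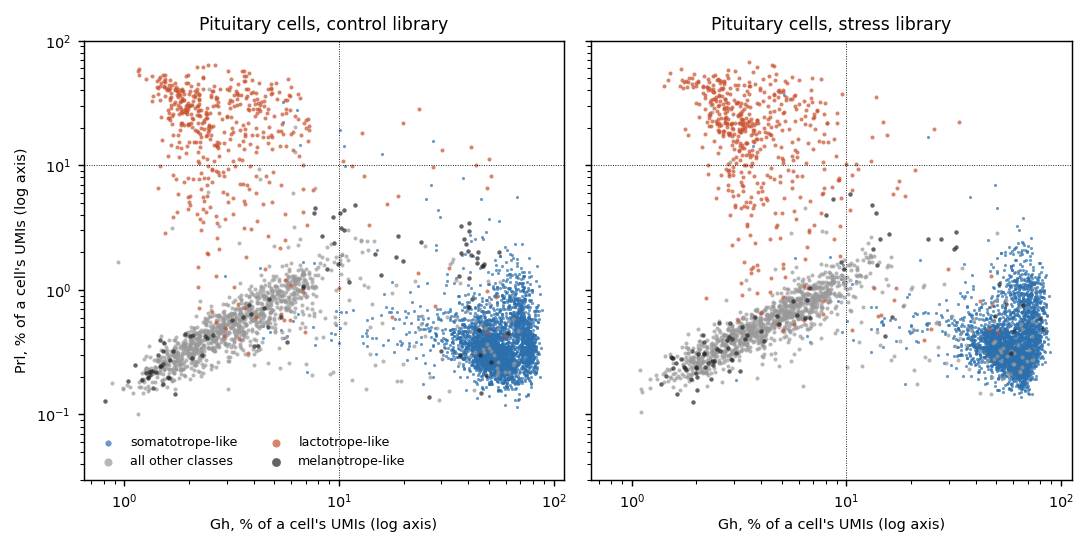
Share of UMIs from Gh and from Prl in single pituitary cells of the control and stress libraries, with dotted lines at 10%. Somatotrope-like cells lie at high Gh, lactotrope-like cells spread along Prl up to 64.2% and 67.2%, and 8 and 9 of the lactotrope-like cells exceed 10% of both.

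UMIs of both hormones were found at a low level in cells that are not known to make them. Outside the somatotrope-like and lactotrope-like classes, 1075 of 1204 control and 1094 of 1251 stress cells had less than 10% of each hormone, and the lowest of them still held 58 and 60 UMIs of Gh. In these cells the median was 182 UMIs of Gh per cell in the control (middle 50%, 161 to 214) and 254.5 in the stress library (226 to 289). The count varied little between classes of very different depth. Such gonadotrope-like cells, with median depths of 11414.5 and 11066.5 UMIs, held 201.5 and 267 UMIs of Gh, while such endothelial-like cells, with 3416 and 3931, held 169 and 238. Lactotrope-like cells below 10% of both hormones held 191 and 271. Melanotrope-like cells were lower, at 137.5 and 152.5. The count of Prl was 30 and 33 UMIs at the median. The ratio of Gh to Prl UMIs per cell had a median of 6.07 in the control (5.20 to 7.25) and 7.78 in the stress library (6.77 to 9.03). The source of these UMIs was not tested.

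In the 278 control and 340 stress cells of the endothelial-like, macrophage-like, fibroblast-like, pericyte-like (13 and 8 cells) and erythroid-like (2 and 19 cells) classes together, Gh took 7.35% and 9.90% of the UMIs, a log2 ratio of 0.43 (0.42 to 0.44). The median cell was at 4.94% and 6.43%. Cells with at least 10% Gh numbered 22 of 278 (7.91%) and 45 of 340 (13.2%), and without them the shares were 4.48% and 5.67%. With suspected doublets kept, 342 and 385 cells entered and the log2 ratio was -0.01, so the direction of the summed level rests on how doublets were treated. Macrophage-like cells alone had 79686 and 129728 CPM of Gh, a log2 ratio of 0.70, past 1.5-fold, in a class where 10.9% of all tested genes were past it. Keeping doublets (0.27), a clustering resolution of 0.5 (0.29), each library clustered alone (0.58) and thinning to 1000 UMIs (0.32) each took it below 1.5-fold. Without their cells at or above 10% the shares were 4.38% and 6.07%.

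Other endocrine classes also held cells with at least 10% Gh. Among melanotrope-like cells these were 40 of 94 in the control (42.6%, exact interval 32.4% to 53.2%) and 22 of 84 under stress (26.2%, 17.2% to 36.9%). In the control the 40 had a median depth of 3075.5 UMIs against 6369.5 in the rest, and under stress 5918 against 6101.5. Among thyrotrope-like cells they were 17 of 82 and 17 of 103. Whether such barcodes hold more than 1 cell was not tested beyond the doublet scores used to remove cells.

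Among classes of at least 20 cells in both libraries, Prl lay past 1.5-fold in the sums of 2 that are not lactotropes. In fibroblast-like cells it was at 10093 and 17872 CPM (log2 ratio 0.82, where 11.5% of tested genes were past 1.5-fold), and in thyrotrope-like cells at 21528 and 11295 CPM (-0.93, 10.8% of tested genes). Each sum rests on very few cells: 1 fibroblast-like cell in each library and 2 thyrotrope-like cells in each held at least 10% Prl. Without them the fibroblast-like levels were 8805 and 7939 CPM (-0.15) and the thyrotrope-like levels 5993 and 5182 CPM (-0.21). In smaller classes Prl had ratios of -1.58 in pericyte-like cells (13 and 8) and -1.54 in dividing cells (11 and 35).

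Ghrhr, the receptor for growth hormone-releasing hormone, was a somatotrope gene in these libraries and lower there under stress. Its 3810 control and 2942 stress UMIs gave 111 CPM (108 to 115) and 81.9 CPM (79.0 to 84.9), a log2 ratio of -0.44 (-0.51 to -0.37). The ratio was below 0 with its interval in 6 of 6 somatotrope-like clusters, from -0.25 to -0.50. It did not reach 1.5-fold, and 12.1% of the tested genes had a ratio at or below it. On the scale without Gh and Prl the levels were 255 and 205 CPM and the ratio was -0.32. Thinning every cell to 1000 UMIs gave -0.62, past 1.5-fold, and subtracting the log2 ratio in other pituitary cells gave -0.24. The direction was the same under each of these settings, and the subtraction moved the size by more than 1.5 times.

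Set against the hormone it drives, Ghrhr had 199 UMIs per 1000000 UMIs of Gh in control somatotrope-like cells (192 to 205) and 137 under stress (132 to 142). Melanotrope-like cells, with 37 and 12 UMIs, had 367 (258 to 506) and 182 (94 to 318). Lactotrope-like cells, with 34 and 24 UMIs (8.69 and 5.51 CPM), had 227 and 126. The log2 ratio of Ghrhr in lactotrope-like cells, -0.65 (-1.47 to 0.14), was the only 1 of the 4 members tested there that was past 1.5-fold, in a class where 6.37% of all tested genes were past it, and it turned to 0.18 when cells were thinned to 1000 UMIs. On the scale without Gh and Prl, among classes of at least 20 cells, melanotrope-like cells came next to somatotrope-like ones only in the control. They stood at 60.8 (42.8 to 83.8) and 22.7 (11.7 to 39.6). Pituicyte-like cells stood at 34.4 (16.5 to 63.2) and 27.1 (10.9 to 55.8), and thyrotrope-like cells at 24.95 (12.5 to 44.7) and 31.1 (19.0 to 48.0). The intervals of these classes met those of melanotrope-like cells in each library. Of the melanotrope-like cells, 40 of 94 and 22 of 84 held at least 10% Gh. These carried 87.7% and 80.6% of the class's Gh UMIs. Outside the pituitary Ghrhr had 1 UMI in the stress PVN library and none in the adrenal.

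Of the 8 genes, 6 had at least 50 UMIs in somatotrope-like cells and 0 of these were past 1.5-fold, beside 6.54% of all 12041 genes tested there. The 6 had a median log2 ratio of -0.09.

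**Figure D3:**
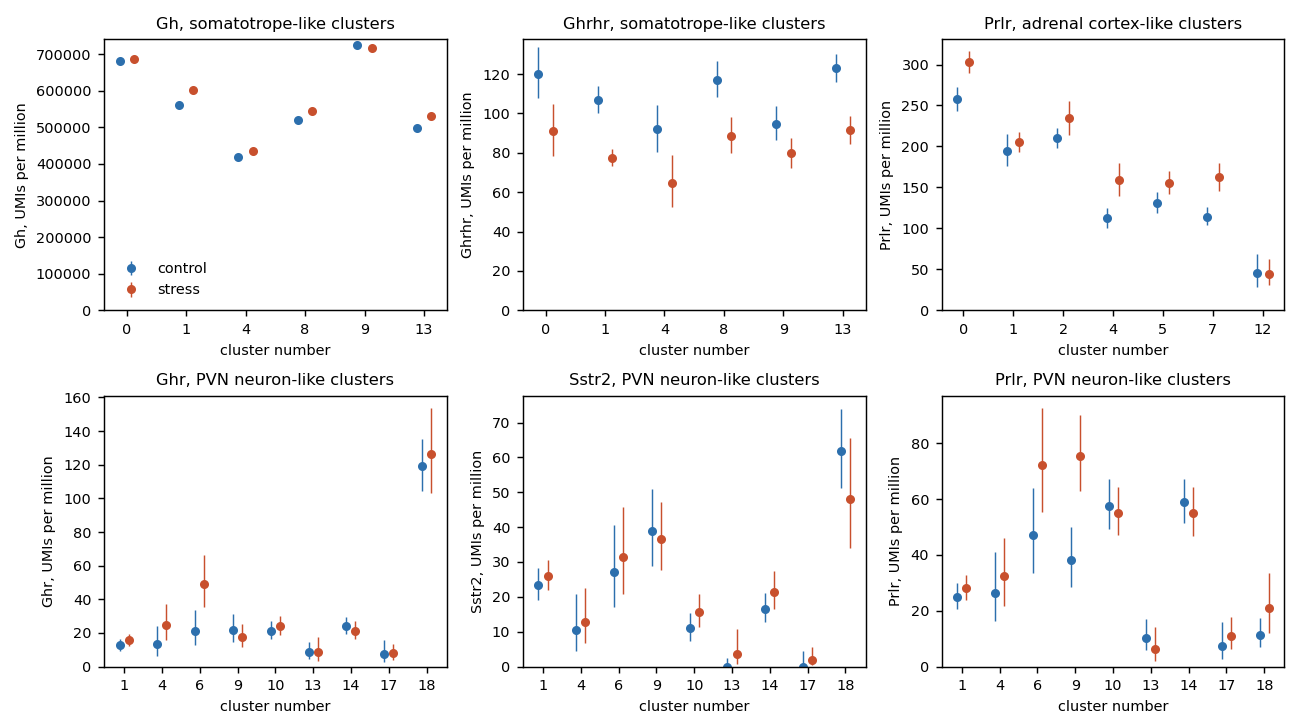
Levels of Gh and Ghrhr in somatotrope-like clusters, Prlr in cortex-like clusters, and Ghr, Sstr2 and Prlr in PVN neuron-like clusters, control and stress. Ghrhr is lower under stress in 6 of 6 somatotrope-like clusters, and Prlr is higher under stress in 6 of 7 cortex-like clusters.

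Ghsr, the ghrelin receptor, was scarce. PVN neuron-like cells held 35 and 34 of its UMIs (1.88 and 1.88 CPM) out of 42 and 38 in the whole PVN libraries. In the pituitary somatotrope-like cells held 16 and 22 UMIs (0.47 and 0.61 CPM), which were 76.2% and 88.0% of the gene's UMIs in kept pituitary cells (exact intervals 52.8% to 91.8% and 68.8% to 97.5%). Somatotrope-like cells were 65.9% and 63.8% of the pituitary cells kept, which is a share of cells and not of UMIs. The whole pituitary libraries had Ghsr at 0.46 (0.29 to 0.69) and 0.53 (0.35 to 0.76) CPM, near the somatotrope-like levels. The share of Ghsr UMIs is therefore not read as an enrichment in this class. Corticotrope-like cells held 5 and 2 UMIs of Ghsr (2.79 and 1.11 CPM), and the adrenal libraries none. At this depth no difference between control and stress could be shown for Ghsr.

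Sstr2, a receptor for somatostatin, reached its highest level among classes of at least 20 cells in thyrotrope-like cells of the pituitary, with 12 and 20 UMIs (23.0 and 27.2 CPM), and in PVN neuron-like cells. Per 1000000 UMIs other than Gh and Prl, thyrotrope-like cells stood at 27.2 (14.1 to 47.6) and 31.1 (19.0 to 48.0). Neuron-like cells stood at 21.8 (19.7 to 24.0) and 22.0 (19.9 to 24.3), so the order of both classes was within counting error. That scale leaves other abundant hormone genes in the total, such as Cga at 104078 CPM and Tshb at 38707 CPM in thyrotrope-like cells of both libraries together. In somatotrope-like cells Sstr2 had 55 and 79 UMIs (1.61 and 2.20 CPM) and a log2 ratio of 0.45 (-0.06 to 0.98). With Gh and Prl out of the total the ratio was 0.58 (0.06 to 1.10), so whether the interval includes 0 depends on the scale. The neuron-like cells held 405 and 399 UMIs, a log2 ratio of 0.02 (-0.18 to 0.22), and after thinning each cell to 1000 UMIs it was -0.80 (-1.57 to -0.09). Among 9 neuron clusters the level ran from 0 and 3 UMIs in cluster 13 and the same in cluster 17 up to 61.8 and 47.9 CPM in cluster 18, which was led by Oxt, Sst, Avp and Crh. The whole adrenal libraries held 2 and 9 UMIs.

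Drd2, the dopamine receptor through which lactotropes are restrained, had 8 and 6 UMIs in the whole pituitary libraries, 3 and 5 in the PVN and 0 in the adrenal. Lactotrope-like cells held 4 and 4 of the 8 and 4 in kept pituitary cells, and melanotrope-like cells held 2 and 0. No order of classes and no difference between conditions can be read from so few UMIs.

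Ghr, the growth hormone receptor, was found in all 3 organs. Among pituitary classes of at least 20 cells the highest levels were in fibroblast-like cells at 71.1 and 97.1 CPM, followed by pituicyte-like cells at 38.3 and 50.9. Somatotrope-like cells had 2.33 and 2.12 CPM and lactotrope-like cells 1.79 and 1.15. As the most frequent class, somatotrope-like cells still held 34.9% and 28.0% of the Ghr UMIs of the kept pituitary cells. Without Gh and Prl in the total the fibroblast-like cells stood at 79.7 (45.6 to 129) and 108 (75.1 to 150). PVN astrocyte-like cells stood at 81.0 (62.0 to 104) and 62.5 (49.8 to 77.5). The intervals of these classes met in each library, though only narrowly under stress. Those of pituicyte-like cells, at 44.7 (23.8 to 76.4) and 58.1 (32.5 to 95.8), also met the fibroblast-like ones. Thyrotrope-like cells stood at 31.8 (17.4 to 53.3) and 26.4 (15.4 to 42.3). Gonadotrope-like cells had 25 and 40 UMIs (9.33 and 18.01 CPM), a log2 ratio of 0.94 (0.19 to 1.73) that was past 1.5-fold where 6.86% of tested genes were. After thinning it was 2.11.

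Among PVN classes of at least 20 cells in both libraries the astrocyte-like class had the highest Ghr, at 81.0 and 62.5 CPM (log2 ratio -0.38, -0.87 to 0.13). Neuron-like cells had 518 and 436 UMIs, 27.8 and 24.1 CPM, a log2 ratio of -0.21 (-0.40 to -0.02). That summed direction was not that of most neuron clusters: 7 of 9 were higher under stress. The interval lay above 0 in only 1 of the 9 and below 0 in 0, so most of these directions were within counting error. Cluster 18, the one led by Oxt and Sst, had 119 and 127 CPM while the other clusters lay between 7.38 and 24.0 in the control and 7.83 and 48.9 under stress, and it held 109 control but 47 stress cells. The sum over neurons thus weights cluster 18 differently in the control and stress libraries. Cluster 6 differed most between libraries, at 21.2 and 48.9 CPM (1.19, 0.38 to 2.09).

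In the adrenal the cortex-like cells held 337 and 331 UMIs of Ghr, 15.3 and 15.0 CPM, a log2 ratio of -0.02 (-0.25 to 0.20). It was lower under stress in 6 of 7 cortex clusters, and no cluster's interval excluded 0. Clustering each library alone named only 549 control cells cortex-like against 1728 under stress and gave 0.70, and subtracting the log2 ratio in other adrenal cells gave 0.51. Fibroblast-like or capsule cells had 37.2 and 24.2 CPM, endothelial-like cells 24.2 and 18.4, and macrophage-like cells 0.50 and 0.97, from 1 and 3 UMIs.

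**Figure D4:**
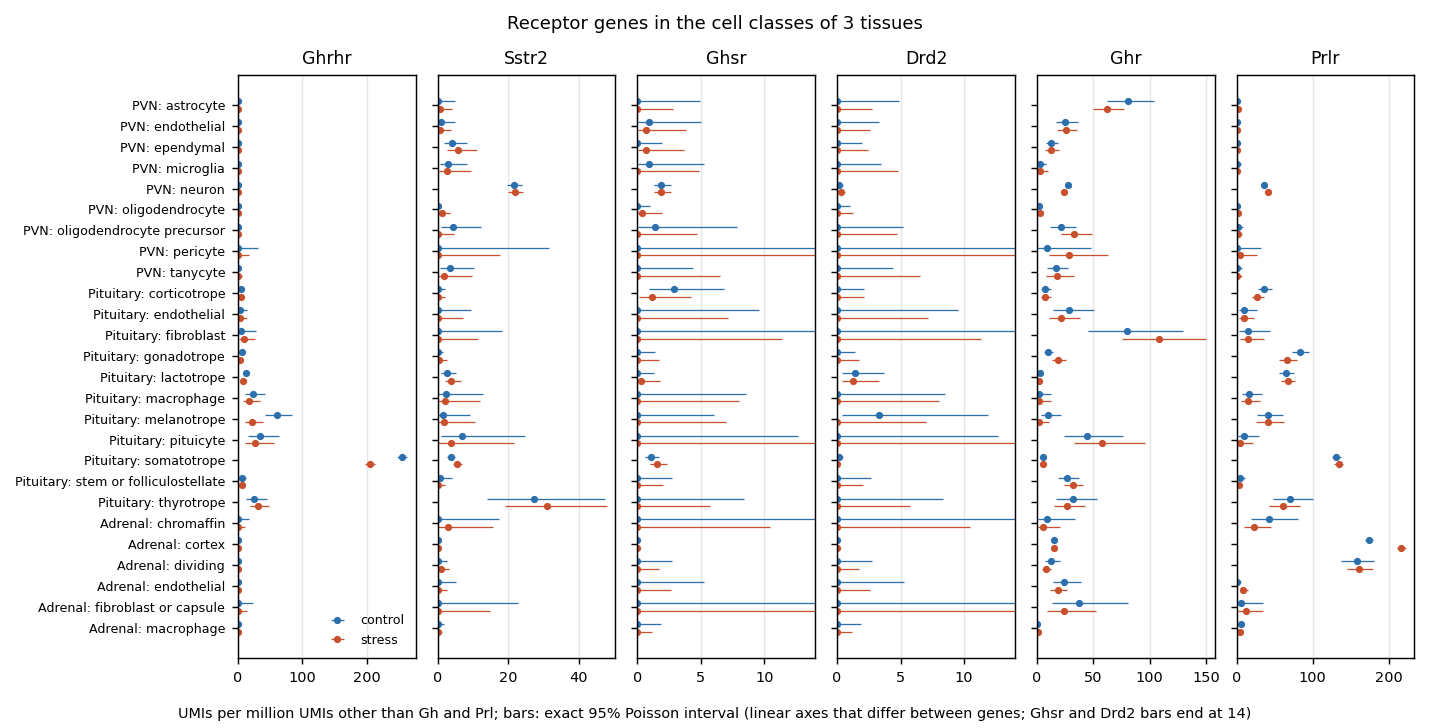
Levels of the 6 receptor genes by cell class in the 3 organs, as UMIs per 1000000 UMIs other than Gh and Prl, control and stress, with 95% counting intervals. Ghrhr is highest in somatotrope-like cells (255 and 205), Prlr in adrenal cortex-like cells (174 and 216), and Ghsr and Drd2 are near 0 throughout.

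Prlr, the prolactin receptor, had its highest level among the named classes in the adrenal cortex. Cortex-like cells held 3839 and 4767 UMIs, 174 and 216 CPM, a log2 ratio of 0.31 (0.25 to 0.38). It was higher under stress in 6 of 7 cortex clusters, with the interval above 0 in 5. Clustering each library alone, with the 549 control cells named above, gave 0.86, and subtracting the log2 ratio in other adrenal cells gave 0.49. The highest level was in cluster 0, at 258 and 303 CPM. That cluster was led by Eno3 and Gulo, and its top genes included the aldosterone synthase gene Cyp11b2 and Agtr1b. The lowest was in cluster 12, led by Abcb1b, at 45.7 and 44.6, the only cortex cluster not higher under stress. The widest ratios were in clusters 7 (114 and 162 CPM, 0.51) and 4 (113 and 159 CPM, 0.50). Neither Prlr nor Ghr was past 1.5-fold in cortex-like cells (0 of 2 members tested, beside 5.88% of all tested genes). Of the other named classes, dividing adrenal cells came next with 158 (137 to 181) and 161 (145 to 179) CPM, an interval that met that of the cortex-like cells (169 to 180) in the control but not under stress (210 to 223). The 74 and 95 unnamed adrenal cells stood at 206 (182 to 232) and 199 (177 to 224) CPM, above the cortex-like class in the control. Chromaffin-like cells had 42.4 and 22.7. Adrenal endothelial-like cells held 0 and 12 UMIs, where 3 UMIs in the control would be 4.27 CPM.

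In the pituitary Prlr was spread over the hormone cells. Gonadotrope-like cells had 80.6 and 64.4 CPM (log2 ratio -0.32, and 0.32 after thinning), thyrotrope-like cells 59.3 and 52.98, somatotrope-like cells 57.2 and 53.6, and lactotrope-like cells 46.2 and 48.0. Corticotrope-like cells had 35.2 and 26.0 and stem-like cells 4.91 and 3.21. The order depends on the scale, since without Gh and Prl in the total somatotrope-like cells stood at 131 and 134 CPM. Somatotrope-like cells, the most frequent class, held 78.2% and 79.1% of the Prlr UMIs of the kept pituitary cells.

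PVN neuron-like cells held 668 and 736 UMIs of Prlr, 35.9 and 40.7 CPM, a log2 ratio of 0.18 (0.03 to 0.33). Thinning to 1000 UMIs gave 0.37, and subtracting the ratio of the few UMIs in other PVN cells turned it to -0.47. The clusters differed in how far the libraries stood apart. Cluster 9, led by the GABA and monoamine transporter genes Slc32a1 and Slc18a2 and by Gad1, had 38.1 and 75.6 CPM (0.98, 0.51 to 1.49), and cluster 6 had 47.0 and 72.2 (0.61). Clusters 14 and 10 were high and near equal in both libraries, at 58.9 and 55.1 and at 57.7 and 55.1 CPM. Glial classes of the PVN held at most 4 UMIs each. Of the 4 members with at least 50 UMIs in neuron-like cells, 0 were past 1.5-fold, beside 2.74% of all genes tested there.

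**Figure D5:**
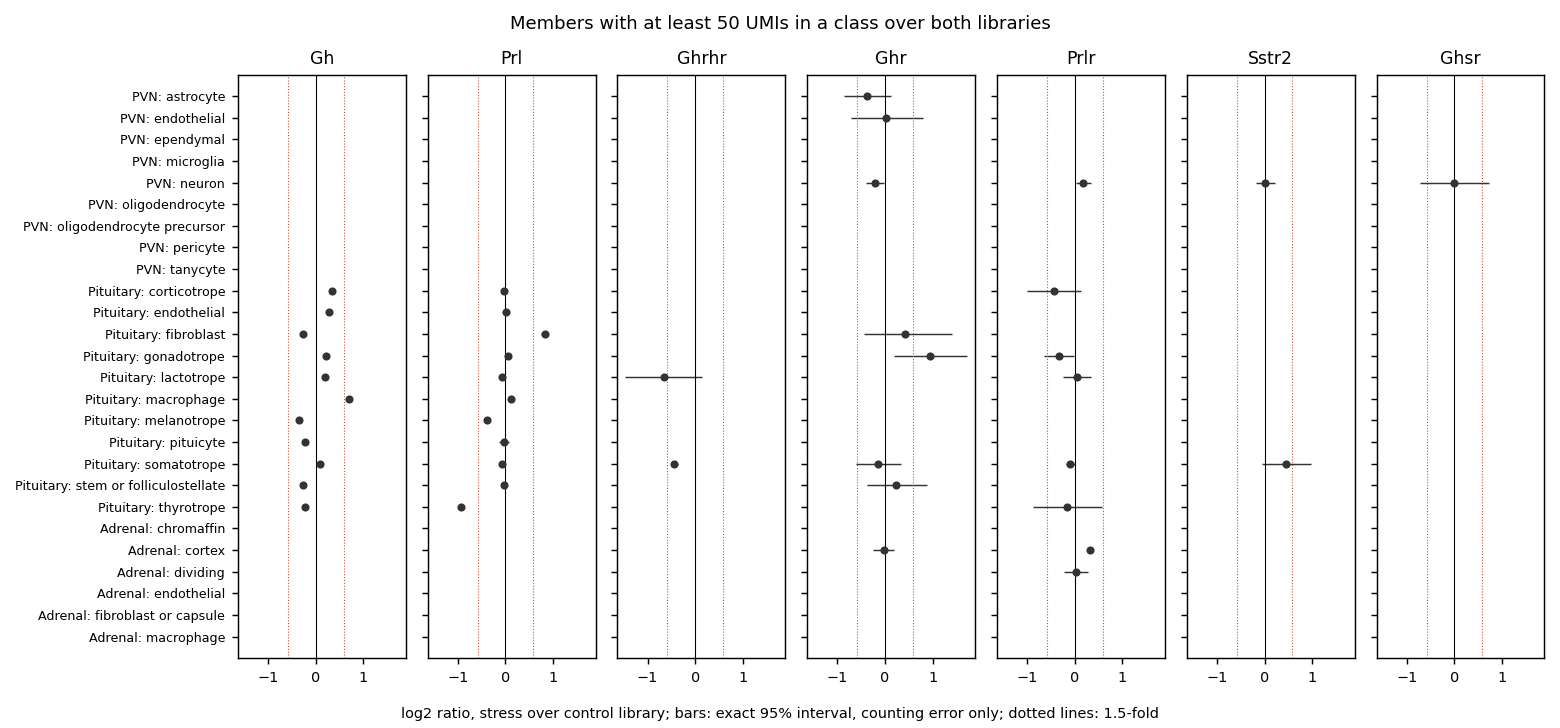
Log2 ratio of stress over control for 7 of the 8 genes (all but Drd2) in each cell class with at least 20 cells in both libraries and at least 50 UMIs, with 95% counting intervals and dotted lines at 1.5-fold. Most points lie between the lines, and those past them are Gh in macrophage-like, Prl in fibroblast-like and thyrotrope-like, Ghrhr in lactotrope-like and Ghr in gonadotrope-like cells.

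Beyond the 8 genes, 30 further genes of the axis were listed in 4 groups: upstream signals, other receptors, signalling below the hormone receptors, and outputs. In PVN neuron-like cells 25 of the 30 had at least 50 UMIs, and 2 were past 1.5-fold higher (1.08% of all genes tested) and 6 lower (1.66%). The median of the 25 was -0.05.

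Ghrh, the releasing hormone read by Ghrhr, had the lowest ratio of them. It had 1183 and 308 UMIs, 63.6 and 17.0 CPM, a log2 ratio of -1.90 (-2.09 to -1.72). These UMIs came from few cells: 18 control and 6 stress neurons with at least 10 UMIs held 975 and 144 of them. Cluster 14, led by Pmch and Trh, had 198 and 26.5 CPM. The direction was not shared by all neuron clusters. Cluster 18 had 20 and 29 UMIs, 10.4 and 35.6 CPM (1.77, 0.91 to 2.68), and cluster 13 had 1 and 2 UMIs. The other clusters had ratios below 0, with cluster 10 near level (-0.19, -0.87 to 0.48). The intervals of clusters 4 (6 and 5 UMIs) and 17 (2 and 3 UMIs) also included 0. Because so few cells carry the gene, the number of such cells caught in each hand-cut block and the RNA per cell cannot be told apart.

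Among the other upstream signals, Sst, which encodes somatostatin, was at 1220 and 733 CPM (-0.73) in neurons as a whole. In cluster 18, its main source, it was at 7778 and 8911 CPM (0.20), with 109 and 47 cells. Sst was also higher under stress in clusters 1, 6, 9, 10, 13 and 17, where the interval of cluster 17 included 0. It was lower only in clusters 4 (-1.71) and 14 (-1.49). Th, which makes the dopamine precursor, was at 60.9 and 38.8 CPM (-0.65), and Vip, a peptide that releases prolactin, at 13.6 and 32.8 CPM (1.26). Of the 254 and 593 Vip UMIs, 222 and 523 lay in cluster 17, which had 95 and 172 cells, levels of 273 and 341 CPM and a ratio of 0.32, and 3 and 7 of its cells held 217 and 521. Trh was at 223 and 255 CPM (0.19).

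Among the receptors, Vipr2, a receptor for the peptide encoded by Vip, had a ratio of 0.73. Those with the most UMIs, Gpr101 and Esr1, were within 1.5-fold at 64.9 and 72.2 CPM and at 7.04 and 6.63 CPM. In the signalling group Stat5a (45 and 25 UMIs, -0.80) and Socs3 (226 and 126 UMIs, -0.80) were lower, while Ptpn11 (73.9 and 71.5 CPM) and Stat5b (28.4 and 25.1 CPM) were within 1.5-fold. In the output group Igfbp2 was lower (45 and 19 UMIs, -1.18), and Igf1r (27.2 and 31.7 CPM) and Igfbp3 (7.20 and 7.62 CPM) were within 1.5-fold.

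In somatotrope-like cells 15 of the 30 had at least 50 UMIs, and 1 was past 1.5-fold, beside 6.54% of all genes tested. It was Socs3, a feedback inhibitor of cytokine receptors, at 16.9 and 31.2 CPM (0.88). Of the other receptors, those with the most UMIs were the oestrogen receptor gene Esr1 at 40.0 and 29.7 CPM (-0.43) and Sstr5 at 8.87 and 7.49. Socs2, which is induced by growth hormone in many tissues, was at 56.9 and 45.6 CPM and Ptpn11 at 47.6 and 49.0. Of the outputs, Igf1r was at 48.4 and 41.1 CPM and Igf1 at 10.3 and 7.16 (-0.52). The median of the 15 was -0.24, beside -0.18 over all genes tested.

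In lactotrope-like cells 9 of the 30 had at least 50 UMIs, with 1 past 1.5-fold higher (2.05% of all genes tested) and 3 lower (4.32%), all in the signalling group. Cish, a STAT5 target and inhibitor, was higher with 44 and 75 UMIs (0.61, 0.06 to 1.19). Stat5b was lower with 53 and 32 UMIs (-0.87, -1.56 to -0.22), as were Stat5a with 38 and 26 (-0.69, -1.48 to 0.06) and Jak2 with 30 and 22 (-0.59, -1.46 to 0.24). The intervals of the last 2 included 0. Esr1 (83.0 and 72.3 CPM), Ptpn11 (69.0 and 57.4), Socs2 (66.4 and 61.1) and Igf1r (42.2 and 41.8) were within 1.5-fold.

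In adrenal cortex-like cells 15 of the 30 had at least 50 UMIs and 1 was past 1.5-fold, beside 5.88% of all genes tested. It was Sstr5, with 21 and 49 UMIs (1.20, 0.46 to 2.04). In the signalling group Socs3 was at 93.7 and 65.4 CPM (-0.52) and Ptpn11 at 78.6 and 85.4. Igf1r was at 68.1 and 73.6 CPM, Igf1 at 6.98 and 5.08, and Esr1 at 8.48 and 7.54.

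Across 51 clusters of at least 20 cells, the transcript whose level followed Gh most closely was Prl (Pearson r of log2 values 0.978 in the control and 0.979 in the stress libraries), then Cga and Pou1f1. For Ghrhr these were Ceacam10 (0.959 and 0.944), Sec14l4 and A930006I01Rik. For Sstr2 the nearest was Dact2 (0.789 and 0.782), for Ghr Fgfr1 (0.788 and 0.819) and for Prlr Syne4 (0.784 and 0.7998). Ghsr lay nearest to Lhx1 (0.802 and 0.792). Clusters of 1 organ share a library, its depth and its background RNA, so these values describe the clusters and carry no test, and the high values for both hormones include their presence in all pituitary clusters.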

How the data were processed

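The authors' deposited files are 10x gene-by-barcode count tables, 1 per library, with raw UMI counts that were not normalized. The submitters' processing notes name Cell Ranger 2.1.1, Scanpy and the build mm10, with no parameters given in the sources used here. From the counts, barcodes under 200 detected genes or over 25% mitochondrial UMIs were dropped, and simulated-doublet scores (2 simulated per cell) removed a preset 0.8% of barcodes per 1000 barcodes, between 39 and 213 per library, a rate that was set and not measured. Scanpy 1.11.5 clustered each organ's libraries together on 2000 variable genes without the 8 genes, the axis list, and immediate-early, heat-shock, mitochondrial, ribosomal and haemoglobin genes (30 components, 15 neighbours, resolution 1). Clusters were named from at least 3 detected markers of a fixed list. That rule and others set after seeing the clusters (top genes in at least 10% of cells, and no name for deep clusters with markers of more than 1 class) left 86 and 60 PVN cells and 74 and 95 adrenal cells unnamed, of which the marker number alone left 21 and 19 adrenal cells. A level is the UMI sum of a class per 1000000 UMIs (CPM) with an exact Poisson interval. A ratio adds 0.5 UMI to each sum and has an exact conditional interval, and calls need 1.5-fold and 50 UMIs over both libraries. The scripts were tested on simulated data. The 8 genes and the lists were chosen with earlier results of these data known. Of each axis group, the 2 genes with most UMIs in a class and any past 1.5-fold were named.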

Additional observations from a re-analysis of the deposited data

Results flagged for a closer look

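The stress over control ratio of Prl went in opposite directions in sums of classes of at least 20 cells other than lactotropes. It was 0.82 in fibroblast-like cells and -0.93 in thyrotrope-like cells on the log2 scale, and the difference between the classes was not tested. Both sums hold cells with at least 10% Prl (1 in each library and 2 in each library, respectively), and without them the ratios were -0.15 and -0.21, both in the same direction.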

How the results depend on the processing

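For Gh in somatotrope-like cells (0.09 on the log2 scale) no filter on cells gave 0.0865, doublets kept 0.0836, resolution 0.5 gave 0.0878, totals without Gh and Prl 0.22, subtraction of the log2 ratio in all other cells of the organ -0.28, and leaving out cluster 0 0.11. For Prl in lactotrope-like cells (-0.08) no filter gave -0.0697, doublets kept -0.12, resolution 0.5 gave -0.0378, each library clustered alone -0.11, thinning -0.11, totals without the hormones -0.10 and that subtraction 0.0019. For Gh in non-endocrine pituitary cells (0.43) the same settings gave 0.49, -0.0116, 0.23, 0.37, 0.28, 0.47 and 0.34, while leaving out cells with at least 10% Gh gave 0.34 and medians over cells 0.38. For Ghr in cortex-like cells (-0.02) each library alone gave 0.70 and subtraction 0.51. Thinning brought the members past 1.5-fold in somatotrope-like cells from 0 to 1 (Ghrhr). The ratio reversed for Prl in fibroblast-like cells without the cells at or above 10% Prl (-0.15) and for Ghrhr in lactotrope-like cells after thinning (0.18). Of 380 values for 46 other results, 247 stayed within the counting interval, 131 lay outside it (106 with the same sign) and 2 called values reversed. Leaving out cluster 0, the cells at or above 10% of a hormone, and medians were chosen after seeing the data. No paired analysis was possible because each group has 1 library. Classes of few cells and genes of few UMIs, Drd2 and Ghsr above all, are limited by depth, and pooled mice leave variation between animals unmeasured.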

Other observations

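Dividing pituitary cells, marked by Mki67 and Top2a, were few, with 11 in the control and 35 in the stress library. At least 10% of UMIs were Gh in 7 of the 11 (63.6%, exact interval 30.8% to 89.1%) and in 32 of the 35 (91.4%, 76.9% to 98.2%). Somatotrope-like cells, of which 99.1% and 99.6% were at or above 10% Gh, made up 65.9% and 63.8% of the pituitary cells kept. The dividing class held 8 and 33 UMIs of Ghrhr and 8 and 24 of Prlr. Cells of 1 pool are not replicates, and whether the classes of dividing cells differ between conditions was not tested.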
